A study of Homo sapiens with 6 samples.

Results

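The genes described here encode the proteasome, the protease complex that degrades ubiquitin-tagged proteins. They were 42 rows of a deposited table of 60960 gene-level features, picked by matching the Ensembl identifier of each row to a fixed list of PSM gene symbols, and all 42 symbols were found. The list held 17 core particle subunits, of which 7 form the alpha ring, 4 are structural beta subunits, 3 are constitutive catalytic subunits and 3 are their immunoproteasome counterparts. It held 17 regulatory particle subunits, of which 6 are ATPases, 3 are other base subunits and 8 are lid subunits. The remaining 8 members were 3 base assembly chaperones, 4 activators and 1 inhibitor.

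RNA came from the human line NCI-H1975, a non-small cell lung cancer, in 6 libraries sequenced in bulk. Cells given small interfering RNA directed at GFPT2 (siGFPT2, n = 3) were set against cells given a control small interfering RNA (siNC, n = 3). GFPT2 encodes an isoform of the enzyme that opens the hexosamine pathway, and the comparison asks what its knockdown does to gene expression. The labels give neither the dose nor the duration of the knockdown, and their text on RNA extraction also names almonertinib, EGF and knockdown of EGFR, which no treatment label carries. Nothing in the labels states that the replicates were separate cultures, so every p-value measures only the spread between these libraries, which may be technical.

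The core particle is a barrel of stacked rings with alpha subunits outside and beta subunits inside. A subset of the beta subunits carries the proteolytic sites. The regulatory particle caps the barrel: its lid and base recognise and deubiquitinate substrates, and its ATPase ring unfolds them and feeds them into the core. In cells exposed to interferon gamma, the catalytic subunits PSMB6, PSMB7 and PSMB5 are replaced in new particles by PSMB9, PSMB10 and PSMB8, which alters the peptides offered to MHC class I molecules. Subunit genes are also known as shared targets of the transcription factor NFE2L1 when proteasome activity is short.

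The targeted gene, GFPT2, had 8.94, 7.58 and 8.72 FPKM in the siGFPT2 libraries, against 10.1, 9.31 and 8.29 FPKM in the siNC libraries. FPKM counts fragments for each kilobase of a gene, scaled by the total counted in the library. The groups overlapped, and the log2 fold change was -0.13 with a 95% interval of -0.43 to 0.17 (limma adjusted p = 0.9999; exact two-sided permutation p = 0.4). It was -0.06 without siGFPT2 replicate 2, -0.06 without siNC replicate 1 and -0.21 without siNC replicate 3. The knockdown was thus not detectable as a separation of the GFPT2 level, and each direction given for siGFPT2 rests on the label. No feature of the 12896 tested passed limma's adjusted threshold of 0.05 (0.0%), and 84 (0.651%) had an unadjusted p under 0.05. Depths recovered from the FPKM steps were 22198121 to 27234880 counted fragments in siGFPT2 libraries and 21899321 to 24493042 in siNC libraries. All 6 epithelial marker genes were above 1 FPKM, summing to 1480 to 1880 FPKM in siGFPT2 and 1430 to 2090 FPKM in siNC, while the leukocyte markers PTPRC and CD3E were at or below 0.02 FPKM.

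Replicate 2 of siGFPT2 and replicate 3 of siNC stood apart from the other 4 libraries. Of the 12896 features averaging 1 FPKM or more, 29.8% had both of these libraries above the other 4 and 35.4% had both below. The deviation of a feature from its mean was lower the longer the mRNA in both, with slopes of -0.08 in siGFPT2 replicate 2 and -0.12 in siNC replicate 3 (log2 units per doubling of length), whereas the slope was 0.04 in the other siGFPT2 libraries and 0.05 and 0.07 in the other siNC libraries. These 2 libraries lie in different groups. The count and median of the members, and the median fold changes of the core rings, the ATPases and the lid, are given with and without them.

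Levels spanned more than 3 orders of magnitude across the 42 genes, and the ordering per gene length had the beta subunit PSMB4 at the top. PSMB4 had 174.5, 237.4 and 184.4 FPKM in siGFPT2 libraries, against 179.3, 159.6 and 262.4 FPKM in siNC libraries. PSMA7, an alpha subunit and next in the order, had 140.0, 188.4 and 147.9 FPKM in siGFPT2 and 156.5, 130.7 and 204.2 FPKM in siNC. It was below PSMB4 in each library, although the ranges of the genes over the 6 libraries overlapped. At the bottom stood PSMA2, also an alpha subunit, at 0.0482 to 0.105 FPKM, which rested on 11 to 20 fragments per library. PSMA2 was the only member below the minimum mean of 1 FPKM and was left out of the test. With no minimum all 42 members were tested, 0 were called and their median log2 fold change was 0.04. The 41 members tested were backed by 103 to 15420 fragments per library.

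**Figure D1:**
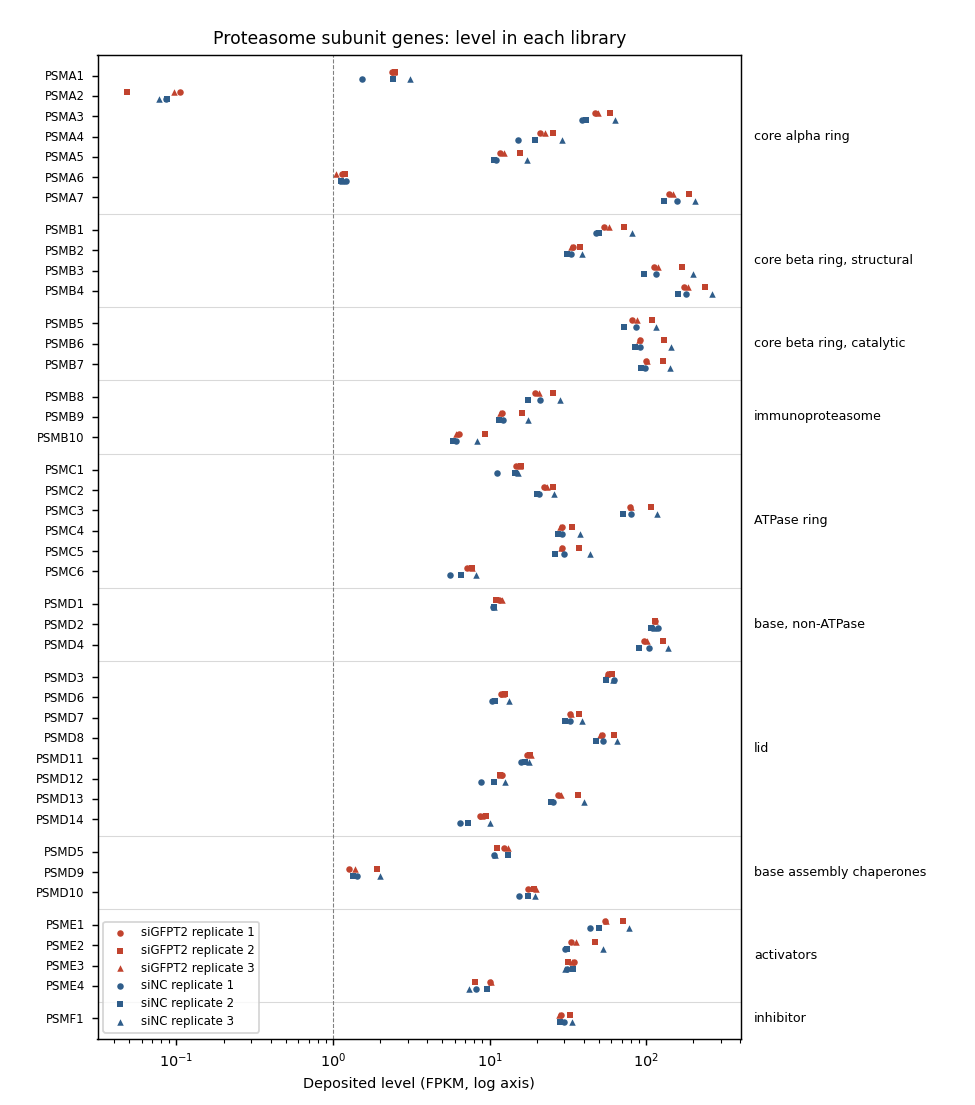
FPKM of the 42 proteasome genes in each of the 6 libraries on a log axis, grouped by subcomplex, with siGFPT2 libraries in red above siNC libraries in blue and the marker shape giving the replicate; the dashed line stands at 1 FPKM, the minimum mean for testing. PSMA2 lies below the line in every library, and for most core genes replicate 2 of siGFPT2 and replicate 3 of siNC are the rightmost points of their groups.

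The alpha ring gates the entry to the core, and its 7 subunits are present in equal number in the particle, yet their FPKM did not lie close together. PSMA7 averaged 158.8 ± 25.9 FPKM in siGFPT2 and 163.8 ± 37.3 FPKM in siNC (SD, n = 3 each), while PSMA6 averaged 1.13 ± 0.0773 FPKM and 1.16 ± 0.0441 FPKM, and PSMA1 averaged 2.45 ± 0.0483 FPKM and 2.34 ± 0.785 FPKM in those groups. FPKM divides by a gene length, recovered from the FPKM steps as 6506 bases for PSMA6, 3050 for PSMA1 and 1752 for PSMA7. Their mRNA lengths are 1029, 1505 and 996 bases. In fragments per library, PSMA6 had 151 to 212 and PSMA7 had 5013 to 8990. The low alpha subunits also shared a feature of annotation. In GENCODE 29 (GRCh38), PSMA1 (chr11:14504874-14643635, minus strand), PSMA2 (chr7:42916857-42932223, minus strand) and PSMA6 (chr14:35278633-35317493, plus strand) each have a second annotated protein-coding gene on the same strand that covers 53.2%, 52.5% and 81.0% of their mRNA. Those overlapping genes were themselves listed at 0 to 0.01 FPKM.

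The same held in part for PSMB10 and PSMD9, of whose mRNA 45.3% and 43.8% lies in exons of a same-strand gene. The 5 members with at least 40% of their mRNA shared in this way were also the 5 lowest of the 42 in mean FPKM, from 0.0836 to 7.01 FPKM. The 23 members that share no exon with any gene of GENCODE 29 had means of 7.15 to 199.6 FPKM. For most members the length recovered from the FPKM steps was not that of GENCODE 29. It differed little for PSMA7 (1752 against 1750 bases) and widely for PSMD1 (15795 against 5187). Overlaps in the annotation behind the deposited values are therefore not known. The options by which reads in shared exons were counted remain not given in the sources used here, and their part in the low levels was not tested. The FPKM of PSMA1, PSMA2, PSMA6, PSMB10 and PSMD9 are therefore uncertain as levels. Whether the reads counted for these genes follow their whole mRNA was not tested. A comparison of the libraries within each of these genes is thus uncertain too. Whether strand was kept is not in the labels, so reads of PSMC1, 82.1% of whose mRNA lies within exons of NRDE2 on the opposite strand, cannot be told apart from reads of that gene. NRDE2 was at 1.20 to 1.62 FPKM. The same limit holds for the shared parts of PSMD7 and PSMC5, where 50.4% and 27.2% of the mRNA lies in exons of an opposite-strand gene. For PSMC5 that gene is FTSJ3, at 20.45 to 24.42 FPKM against 26.2 to 43.57 FPKM for PSMC5. Some other members share smaller parts of their mRNA in this way.

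Among the alpha genes, PSMA3 had the smallest p. It had 47.2, 58.6 and 49.6 FPKM in siGFPT2 libraries, against 39.0, 41.4 and 63.6 FPKM in siNC libraries. The siNC libraries bracketed the siGFPT2 ones, with replicates 1 and 2 of siNC the lowest of all 6 and replicate 3 the highest. The log2 fold change was 0.14 with a 95% interval of -0.35 to 0.63 (limma adjusted p = 0.9999). Of the 6 alpha genes tested, 4 had a log2 fold change above 0 and 2 below, with a median of 0.08. That median was 0.21 without siGFPT2 replicate 2 and siNC replicate 3, 0.31 without siNC replicate 3 alone, 0.13 without siGFPT2 replicate 1, 0.00 without siNC replicate 2, -0.01 without siGFPT2 replicate 2 alone and -0.05 without siNC replicate 1.

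The 4 structural beta genes, which hold the inner rings together, all had log2 fold changes just above 0, with a median of 0.02. It was 0.11 without siGFPT2 replicate 2 and siNC replicate 3, and between -0.09 and 0.27 with 1 library left out, lowest without siNC replicate 2 and highest without siNC replicate 3. PSMB1 had 54.1, 72.3 and 58.2 FPKM in siGFPT2 libraries, against 48.1, 49.8 and 80.9 FPKM in siNC libraries, a log2 fold change of 0.08 (-0.46 to 0.62). PSMB2, the lowest of the 4, averaged 35.1 ± 2.59 FPKM in siGFPT2 and 34.6 ± 4.07 FPKM in siNC. PSMB3 had the widest spread of the tested members, at 112.6, 168.8 and 118.9 FPKM in siGFPT2 and 115.0, 97.4 and 198.9 FPKM in siNC. Its highest and lowest values, which differed 2.04-fold, were both siNC libraries.

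The constitutive catalytic genes lay close to each other in FPKM. PSMB5, which carries the chymotrypsin-like site, had 81.0, 108.4 and 87.1 FPKM in siGFPT2 libraries, against 86.5, 72.5 and 116.1 FPKM in siNC libraries. PSMB6, which carries the caspase-like site, averaged 104.2 ± 23.0 FPKM in siGFPT2 and 107.0 ± 33.2 FPKM in siNC. PSMB7, which carries the trypsin-like site, averaged 109.9 ± 16.5 FPKM in siGFPT2 and 111.2 ± 27.3 FPKM in siNC. In each of these genes the siNC group held both the highest and the lowest library, so its range enclosed the siGFPT2 range. Their log2 fold changes were 0.02, -0.02 and 0.00, and the median of the 3 was 0.07 without siGFPT2 replicate 2 and siNC replicate 3. Their intervals together reached from -0.61 to 0.57, that of PSMB6 reaching past 1.5-fold lower.

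Immunoproteasome genes were measured in both groups, at lower FPKM than the constitutive genes they replace. PSMB8 (chr6:32840717-32844703, minus strand) had 19.5, 25.4 and 20.6 FPKM in siGFPT2 libraries, against 21.0, 17.7 and 28.2 FPKM in siNC libraries. PSMB9 (chr6:32844136-32859585, plus strand) had 11.95, 16.04 and 11.63 FPKM in siGFPT2 libraries, against 12.23, 11.56 and 17.52 FPKM in siNC libraries. PSMB10 (chr16:67934502-67937087, minus strand) had 6.36, 9.33 and 6.10 FPKM in siGFPT2 libraries, against 6.14, 5.81 and 8.29 FPKM in siNC libraries. For all 3 genes the high libraries were replicate 2 of siGFPT2 and replicate 3 of siNC, and the groups overlapped. The log2 fold changes were -0.01 for PSMB8, -0.05 for PSMB9 and 0.10 for PSMB10, and none passed the test (limma adjusted p = 0.9999 for each). Their median was -0.01, and 0.06 without siGFPT2 replicate 2 and siNC replicate 3. PSMB8 and PSMB9 share 139 exonic bases on opposite strands in GENCODE 29.

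A ratio within a library removes the library's scale, and each immunoproteasome gene was divided by the constitutive gene whose place its product takes. PSMB8 stood at 24.1%, 23.5% and 23.7% of PSMB5 in siGFPT2 libraries, against 24.3%, 24.3% and 24.3% in siNC libraries. The 2 groups did not overlap, but the log2 difference was only -0.03 and the counting error of a single ratio was 2.52% to 3.39% of its value. The exact two-sided permutation test gave p = 0.1, the smallest that 3 against 3 allows, and p = 0.3 after Benjamini-Hochberg adjustment over the 3 ratios. PSMB9 stood at 12.7 ± 0.422% of PSMB6 in siGFPT2 and 13 ± 0.851% in siNC (exact permutation p = 0.6, adjusted 0.6; n = 3 each). PSMB10 stood at 6.55 ± 0.625% of PSMB7 in siGFPT2 and 6.11 ± 0.258% in siNC (exact permutation p = 0.4, adjusted 0.6; n = 3 each). The shared-exon limit on PSMB10 applies to this ratio too. The level of each ratio also depends on the gene lengths behind the FPKM. Those recovered from the FPKM steps were 3480 bases for PSMB8 and 1549 for PSMB5, against mRNA lengths of 1124 and 1294. For PSMB9 and PSMB6 they were 3338 and 1447, against 782 and 852. For PSMB10 and PSMB7 they were 1626 and 1788, against 1218 and 980. The percentages are therefore not proportions of transcripts.

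**Figure D2:**
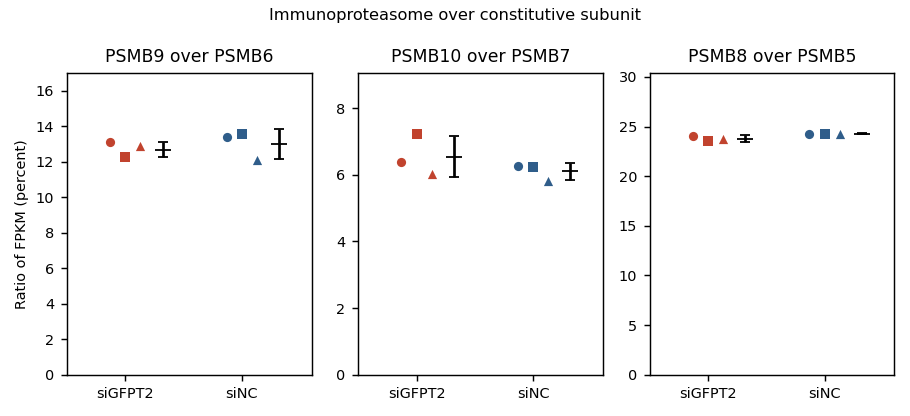
FPKM of each immunoproteasome gene as a percent of its constitutive counterpart in the same library, 1 panel per pair, with siGFPT2 left of siNC, points for libraries and bars for mean ± SD (n = 3 each). The ratios run from 23.5% to 24.3% for PSMB8 over PSMB5, from 12.1% to 13.6% for PSMB9 over PSMB6 and from 5.81% to 7.24% for PSMB10 over PSMB7.

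Interferon control of these genes runs through short promoter elements, and the letters are shown here because 4 members carry the same one. Promoter windows of RefSeq (GRCh38.p14), each from 250 bases before to 50 bases after an annotated start, were found for 37 of the 42 members; PSMA7, PSMB1, PSMB6, PSMB7 and PSMD4 were not matched. An element of the interferon-stimulated response type, searched on both strands as GAAA and GAAA with any 2 bases between them, occurred in 6 of the 37 members (16.2%), namely PSMA4, PSMB4, PSMB8, PSMB10, PSME1 and PSME2, against 4.4% of 27305 genes with a window. Stretches of 80 bases are given 5′ to 3′ on the gene's strand, with the match in capitals: PSMB8 at chr6:32844028-32844107 (minus strand, at 1 of its annotated starts), PSMB10 at chr16:67936831-67936910 (minus strand), PSME1 at chr14:24136134-24136213 (plus strand) and PSME2 at chr14:24146594-24146673 (minus strand).
PSMB8: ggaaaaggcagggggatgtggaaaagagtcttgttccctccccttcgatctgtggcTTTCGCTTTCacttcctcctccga
PSMB10: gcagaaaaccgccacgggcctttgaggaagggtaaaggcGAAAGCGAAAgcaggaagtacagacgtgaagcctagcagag
PSME1: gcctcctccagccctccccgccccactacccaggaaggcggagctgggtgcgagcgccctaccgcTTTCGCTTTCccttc
PSME2: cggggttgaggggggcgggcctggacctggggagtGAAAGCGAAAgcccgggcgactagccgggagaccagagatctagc
In PSMB10 and PSME2 the match reads GAAAGCGAAA, and in PSMB8 and PSME1 it reads TTTCGCTTTC, which is the same element on the other strand. A match is a description of the letters and not of binding. A gene counted as matched if the window of any of its annotated starts matched, and 7 members had more than 1 start. Members and other genes were not matched for number of starts or base composition. PSME1 and PSME2, which form the activator cap known to be induced by interferon gamma, are described with the activators below. PSMB9 had no match in its window and lies head to head with the peptide transporter gene TAP1, with their RefSeq starts 488 bases apart (chr6:32854192 for PSMB9 and chr6:32853704 for TAP1). The TAP1 window held 2 overlapping matches, TTTCGATTTC and TTTCGCTTTC, which begin at -134 and -128 from the TAP1 start. They lie between the starts of the genes, outside the PSMB9 window.

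TAP1 and PSMB9 were high in different libraries. TAP1 had 9.43, 9.39 and 9.72 FPKM in siGFPT2 libraries, against 10.4, 9.36 and 8.94 FPKM in siNC libraries, with the library labelled siNC replicate 3 the lowest for TAP1 and the highest for PSMB9. In the list of interferon pathway genes, 9 of 10 genes passed the minimum level, 7 had a log2 fold change above 0 and 2 below, with a median of 0.03, and none passed the test. IFNGR1, a chain of the interferon gamma receptor, averaged 6.61 ± 0.319 FPKM in siGFPT2 and 5.98 ± 0.393 FPKM in siNC, without overlap, and its log2 fold change was 0.15 (-0.11 to 0.40). It was named for a small p within its list, and 3.53% of all features tested had groups that did not overlap.

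The ATPase ring of the regulatory particle comprised PSMC1 to PSMC6, with means from 7.15 FPKM for PSMC6 to 88.9 FPKM for PSMC3. PSMC1 had 14.8, 15.9 and 15.6 FPKM in siGFPT2 libraries, against 11.2, 14.5 and 15.3 FPKM in siNC libraries. Its siNC replicate 1 lay apart at the low end, and the other 5 libraries lay between 14.5 and 15.9 FPKM. The log2 fold change was 0.19 with an interval of -0.14 to 0.52, and its p of 0.221 was the smallest of all 41 members (limma adjusted p = 0.9999). PSMC6 had 7.16, 7.76 and 7.71 FPKM in siGFPT2 libraries and 5.58, 6.54 and 8.14 FPKM in siNC libraries. As for PSMC1, siNC replicates 1 and 2 were the lowest, but siNC replicate 3 was the highest library for PSMC6 only. PSMC3 averaged 88.4 ± 16.4 FPKM in siGFPT2 and 89.5 ± 24.5 FPKM in siNC, a log2 fold change of 0.00. The median of the 6 ATPase genes was 0.05, and 0.11 without siGFPT2 replicate 2 and siNC replicate 3, while PSMC1 stood at 0.25 without these libraries and at 0.05 without siNC replicate 1.

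Of the other base subunits, the large scaffolds PSMD1 and PSMD2 varied little between libraries, whereas the ubiquitin receptor PSMD4 averaged 108.8 ± 16.3 FPKM in siGFPT2 and 111.2 ± 24.8 FPKM in siNC. PSMD2 had 113.3, 114.2 and 113.7 FPKM in siGFPT2 libraries, against 119.6, 107.2 and 112.3 FPKM in siNC libraries, and its highest and lowest values differed 1.12-fold, the smallest such fold of the 42. PSMD1 had 11.47, 10.97 and 12.06 FPKM in siGFPT2 libraries, against 10.50, 10.73 and 10.62 FPKM in siNC libraries. All siGFPT2 libraries lay above all siNC libraries for PSMD1, and it was the only one of the 41 members whose groups did not overlap. Over all features tested, 3.53% had groups that did not overlap, namely 2.16% with siGFPT2 higher and 1.36% with siGFPT2 lower. The log2 fold change of PSMD1 was 0.11 (-0.12 to 0.34), and it did not pass the test (limma adjusted p = 0.9999).

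In the lid, whose PSMD14 is the deubiquitinase that removes ubiquitin chains from substrates, 6 of 8 genes had log2 fold changes above 0, with a median of 0.08. It was 0.15 without siGFPT2 replicate 2 and siNC replicate 3, 0.17 without siNC replicate 3 alone, 0.02 without siGFPT2 replicate 2 alone, and 0.01 without siNC replicate 1 as well as without siNC replicate 2. PSMD14 had 8.69, 9.44 and 8.94 FPKM in siGFPT2 libraries, against 6.47, 7.32 and 10.1 FPKM in siNC libraries. The lowest 2 libraries and the highest one were all siNC. Its log2 fold change of 0.20 was the largest of the members, with an interval of -0.22 to 0.62 (limma adjusted p = 0.9999). PSMD3, the lid gene with the highest FPKM, had 56.8, 60.2 and 56.6 FPKM in siGFPT2 libraries and 62.5, 55.4 and 61.7 FPKM in siNC libraries, and its log2 fold change was -0.05.

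Chaperones, activators and an inhibitor completed the list. PSMD9, PSMD10 and PSMD5 are chaperones of base assembly, and PSMD10, known as gankyrin, averaged 18.8 ± 1.17 FPKM in siGFPT2 and 17.5 ± 1.97 FPKM in siNC. PSMD9, with the lowest log2 fold change of the members (-0.06), averaged 1.52 ± 0.349 FPKM in siGFPT2 and 1.59 ± 0.368 FPKM in siNC. Among the activators, PSME1 had 54.45, 70.97 and 55.12 FPKM in siGFPT2 libraries, against 43.84, 49.96 and 77.4 FPKM in siNC libraries, and PSME2, its partner in the same cap, averaged 38.6 ± 7.41 FPKM in siGFPT2 and 38.1 ± 12.7 FPKM in siNC. PSME4, a large single-chain cap found in the nucleus, ran the other way across libraries, at 10.03, 8.04 and 10.15 FPKM in siGFPT2 and 8.21, 9.59 and 7.37 FPKM in siNC. Its lowest values were those of siGFPT2 replicate 2 and siNC replicate 3, as for no other tested member. PSMF1, an inhibitor of the core, averaged 29.7 ± 2.61 FPKM in siGFPT2 and 30.5 ± 2.77 FPKM in siNC.

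Most members were high in the same libraries, 1 from each group. For 30 of the 41 tested members, siGFPT2 replicate 2 and siNC replicate 3 were both above the other 4 libraries, against 29.8% of all features tested, and for 1 member, PSME4, both were below, against 35.4%. The single highest library was siNC replicate 3 for 30 members, against 30.2% of all features. The median deviation of the members from their own mean was 0.19 log2 units in siGFPT2 replicate 2 and 0.30 in siNC replicate 3, while the medians over all features were -0.01 and -0.04. In the other siGFPT2 libraries the member medians were -0.08 and -0.06, and in the other siNC libraries they were -0.13 and -0.18. The highest and lowest libraries of a member differed by a median of 1.53-fold over all 6 libraries and 1.16-fold over the other 4.

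**Figure D3:**
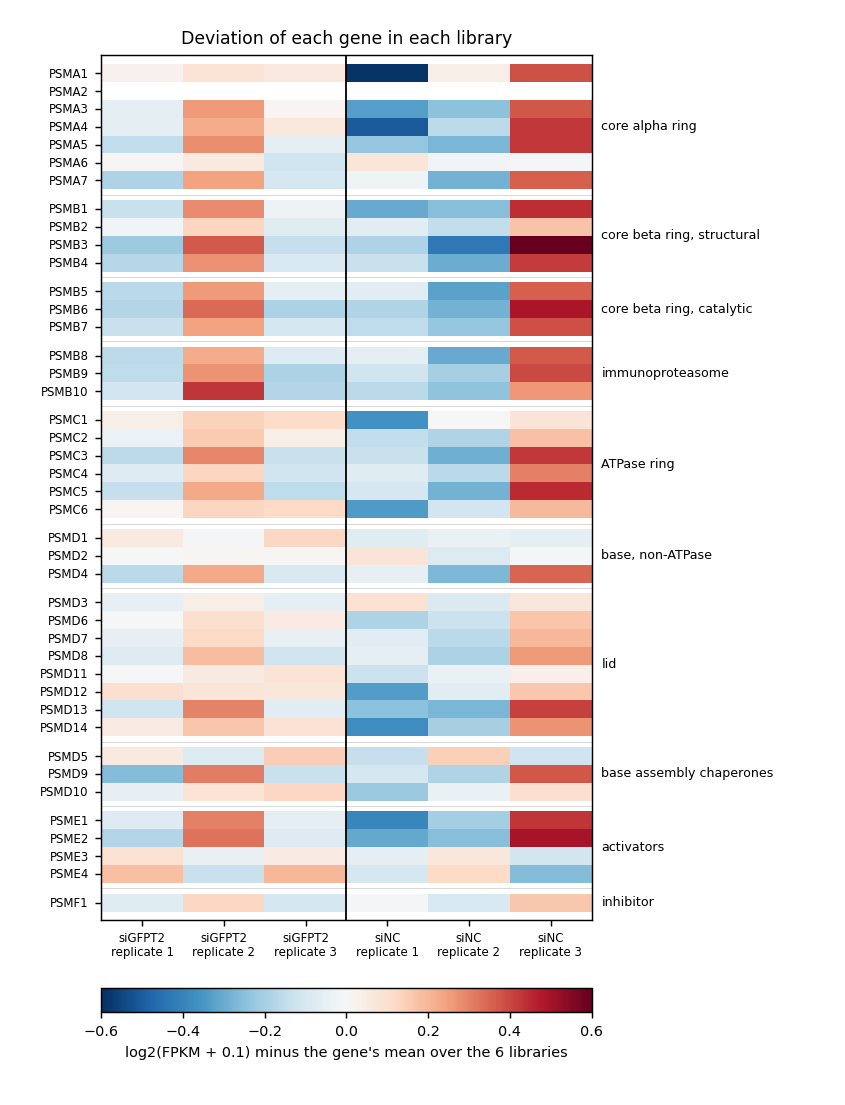
Heat map of the log2 deviation of each tested member (rows, by subcomplex) from its mean over the 6 libraries, with siGFPT2 libraries left of siNC libraries and the colour scale ending at -0.6 and 0.6. The columns of siGFPT2 replicate 2 and siNC replicate 3 are above the mean for most rows, and PSME4 has the opposite pattern.

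The size of this shift is given here by subcomplex, as a description. Over the 16 core genes tested, the median deviation was 0.26 in siGFPT2 replicate 2 and 0.38 in siNC replicate 3, and 15 of the 16 had both libraries above the other 4. Over the 17 regulatory particle genes, the medians were 0.13 and 0.20, and 11 of 17 had both above. Constitutive and immunoproteasome catalytic genes had nearly the same medians, 0.27 for the immunoproteasome genes and 0.26 for the constitutive genes in siGFPT2 replicate 2, and 0.37 and 0.38 in siNC replicate 3. The base subunits other than ATPases had medians of 0.01 and -0.01 in these libraries, with 1 of 3, PSMD4, above in both.

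The length of the mRNA ran alongside. Of the members, 9 had an mRNA under 1000 bases, and their median deviation was 0.27 in siGFPT2 replicate 2 and 0.40 in siNC replicate 3, against 0.19 and 0.29 over 1777 features of that length. For the 6 members of at least 4000 bases the medians were 0.10 and 0.12, against -0.20 and -0.35 over 3708 features. The slopes on length within the members, -0.08 and -0.13 per doubling, lay close to those over all features, -0.08 and -0.12. In every length class the members' medians in these libraries were above those of all features of that length. With the length slope of each library as a covariate, limma again called 0 members, and their median log2 fold change was 0.05. Bulk RNA cannot tell fewer cells of a kind from less RNA per cell.

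**Figure D4:**
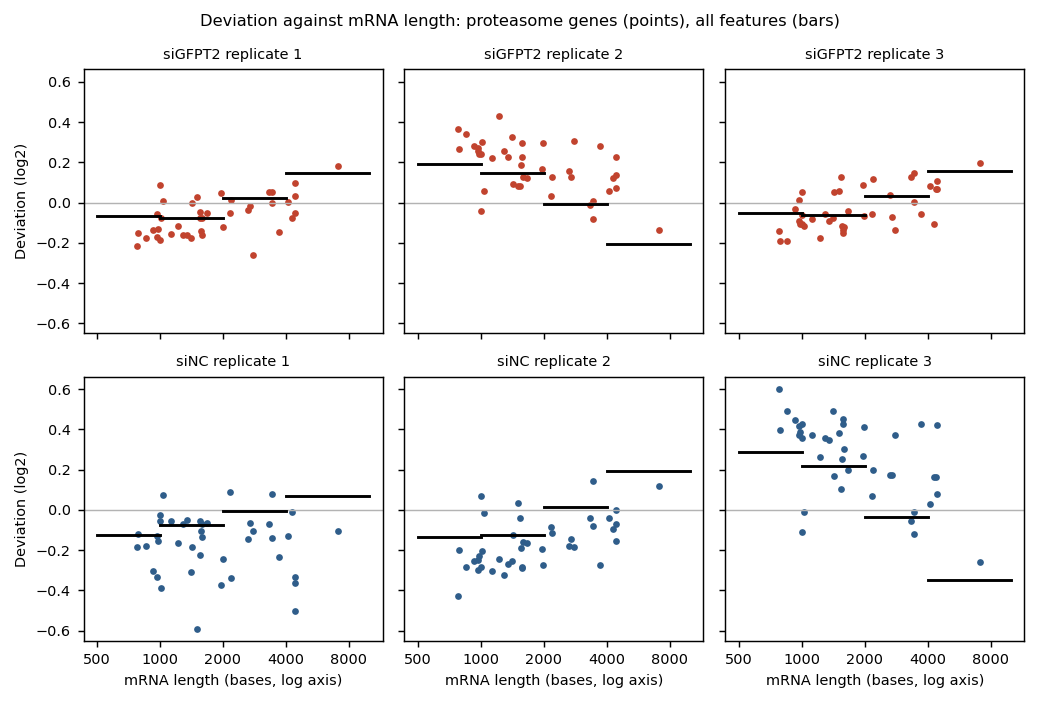
Log2 deviation of each tested member from its mean (points) against the length of its principal mRNA in bases on a log axis, 1 panel per library, siGFPT2 first; black bars give the median over all features tested in 4 length classes. In siGFPT2 replicate 2 and siNC replicate 3 short members lie highest and the bars descend, from 0.19 to -0.20 and from 0.29 to -0.35, with members mostly above the bars.

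Between siGFPT2 and siNC, none of the 41 tested members passed limma's test at an adjusted p of 0.05, and the same was true of all 12896 features (0.0%). At an unadjusted p under 0.05, 0 members stood against 0.651% of all features, and limma-voom on recovered reads gave 0 members against 0.465%. The median log2 fold change of the members was 0.05, with 29 above 0 and 12 below, and the median over all features was 0.03, with 61.4% above 0. With each library centred on the median of its features, 20 members were above 0 and 21 below, with a median of -0.01, against 44.0% of all features above 0. Quantile normalization gave 31 above and 10 below, with a median of 0.04, against 50.1% of all features. The intervals set bounds on what these libraries allow. All 41 members had a 95% interval within 2-fold in either direction, as did 92.8% of all features, and 29 had one within 1.5-fold, as did 61.1%.

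**Figure D5:**
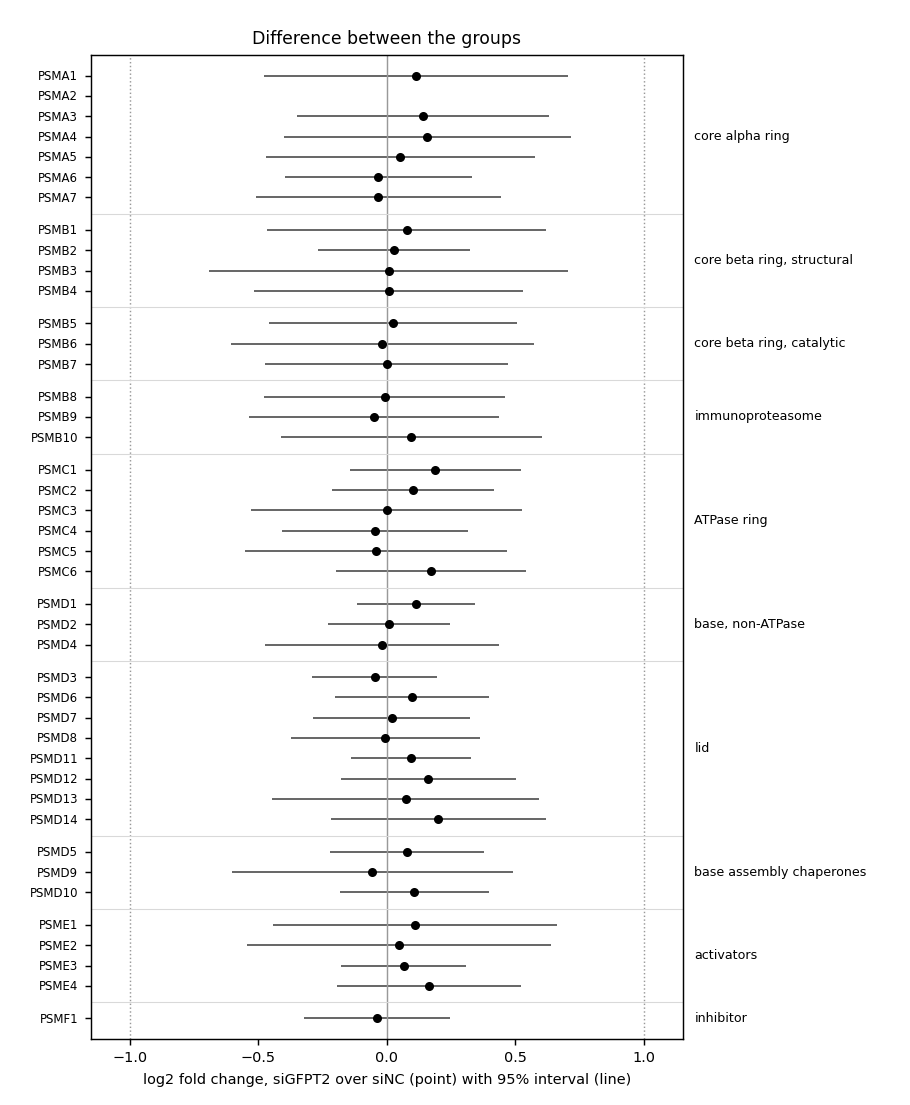
Log2 fold change of siGFPT2 over siNC for the 41 tested members with 95% intervals from limma, grouped by subcomplex; dotted lines mark 2-fold in either direction. Every interval crosses 0 and lies inside the dotted lines, and the fold changes range from -0.06 for PSMD9 to 0.20 for PSMD14.

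Leaving out siNC replicate 3 and siGFPT2 replicate 2 left 0 features past the adjusted threshold (smallest limma adjusted p of a member = 0.72). On the remaining 2 libraries a group, 36 members had a log2 fold change above 0 and 5 below, with a median of 0.09, against 57.0% of all features above 0. At an unadjusted p under 0.05, 7 members were higher in siGFPT2 and 0 were lower, against 3.99% and 1.84% of all features in these directions. These were PSMA3 (log2 fold change 0.27, 0.08 to 0.45), PSMD14 (0.35, 0.12 to 0.59), PSMA4, PSMB1, PSMC6, PSMD12 and PSME1. In all 7 the library labelled siNC replicate 1 was the lowest of the 6. Without that library alone, PSMA3 stood at 0.0086, PSMD14 at 0.07 and PSMC6 at 0.05, and 16 members were above 0 and 25 below with a median of -0.03, against 60.7% of all features above 0. Without siNC replicate 3 alone, 39 members had a log2 fold change above 0, against 52.8% of all features, and the median was 0.19. In that fit 4 members, PSMA3, PSMA4, PSMC6 and PSMD14, were higher at an unadjusted p under 0.05 and 0 were lower, against 3.26% and 0.768% of all features. Without siGFPT2 replicate 2 alone, 16 members were above 0 and 25 below with a median of -0.06, against 60.7% of all features above 0. Without siNC replicate 2 alone, the counts were again 16 and 25, against 60.9%. Leaving out siGFPT2 replicate 1 alone gave 37 above and 4 below with a median of 0.11, against 57.9%. Leaving out siGFPT2 replicate 3 alone gave 39 above and 2 below with a median of 0.07, against 57.5%.

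Elements of the antioxidant response type, through which NFE2L1 is known to act on subunit genes, are shown for 3 members. Searched as TGACNNNGC on both strands, the element occurred in 13 of 37 members (35.1%), against 16.1% of 27305 genes. The CCAAT box, searched as CCAAT on both strands, occurred in 18 of 37 (48.6%), against 39.7%. As above, a match at any annotated start counted, with no matching for number of starts or base composition. The stretches are from RefSeq (GRCh38.p14), 5′ to 3′ on the gene's strand, with the match in capitals: PSMA4 at chr15:78540625-78540704 (plus strand), PSMD12 at chr17:67366698-67366777 (minus strand) and PSMD3 at chr17:39980735-39980814 (plus strand).
PSMA4: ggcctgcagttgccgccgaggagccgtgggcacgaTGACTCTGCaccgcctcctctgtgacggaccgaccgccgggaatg
PSMD12: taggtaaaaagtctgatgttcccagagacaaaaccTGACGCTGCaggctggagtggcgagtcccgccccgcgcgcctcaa
PSMD3: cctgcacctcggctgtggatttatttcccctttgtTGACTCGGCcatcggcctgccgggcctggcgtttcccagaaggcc
The matches begin at positions -165 and -37 from the annotated start in PSMD12 and PSMD3, and at -126 from 1 of the annotated starts of PSMA4. PSMA4 had 20.9, 25.4 and 22.7 FPKM in siGFPT2 libraries and 15.3, 19.5 and 29.1 FPKM in siNC libraries, so its groups overlapped. PSMD12 averaged 11.8 ± 0.13 FPKM in siGFPT2 and 10.6 ± 1.83 FPKM in siNC.

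Genes that act with the proteasome gave no call either. NFE2L1 itself averaged 35.1 ± 3.7 FPKM in siGFPT2 and 35.1 ± 7.96 FPKM in siNC. It was lowest in siGFPT2 replicate 2 and siNC replicate 3, at 30.8 and 25.9 FPKM. Of the 10 genes of its axis, 6 had a log2 fold change above 0 and 4 below. In 5 of the 10 both of these libraries were below the other 4, and in 0 both were above, against 35.4% and 29.8% of all features. The NFE2L1 partner MAFF, a small MAF factor, averaged 2.75 ± 0.0892 FPKM in siGFPT2 and 2.56 ± 0.104 FPKM in siNC, without overlap. Its log2 fold change was 0.10, and that of MAFK was -0.13. The list of 6 assembly chaperones, which act on the core except for PAAF1, a factor of the ATPase base, was high in the same libraries as the core genes, with medians of 0.27 in siGFPT2 replicate 2 and 0.41 in siNC replicate 3, and all 6 had both libraries above the other 4. In that list PSMG1 and PSMG2, which pair in the early assembly of the alpha ring, had log2 fold changes of 0.18 and 0.21, which lay between 0.06 and 0.41 and between 0.04 and 0.52 when 1 library was left out, lowest without siNC replicate 1 and highest without siNC replicate 3. The deubiquitinases UCHL5 and USP14, which bind the regulatory particle, had 0.18 and 0.12, and 0.03 and 0.05 without siNC replicate 1. Among the ubiquitin-activating enzymes, UBA1 averaged 96.8 ± 0.623 FPKM in siGFPT2 and 102.8 ± 7.4 FPKM in siNC, without overlap, at a log2 fold change of -0.08, and -0.03 without siNC replicate 1. UBA6 had 0.22, and 0.05 without siNC replicate 3, 0.10 without siGFPT2 replicate 3, 0.40 without siGFPT2 replicate 2 and 0.42 without siNC replicate 2. The shuttle factor RAD23B, which carries ubiquitinated proteins to the particle, had 0.09. None of these genes passed the test (limma adjusted p = 0.9999 for each). MAFF and UBA1 were named for a small p within their lists, and 3.53% of all features tested had groups that did not overlap.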

How the data were processed

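Poly(A)-enriched RNA from 6 libraries of NCI-H1975 was sequenced by the authors. The deposited values are FPKM per gene, made by the authors with HISAT2, featureCounts and DESeq2, per the submitters' processing notes; build, annotation and counting options remain not given in the sources used here. Columns were tied to samples by name.

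The log2(FPKM + 0.1) values were compared by limma 3.58.1, run in R 4.3.3, with group as the only term, an empirical Bayes trend, two-sided tests, and Benjamini-Hochberg adjustment over the 12896 features that averaged 1 FPKM or more. Fold changes on this scale understate those of low genes. The script was tested on simulated data. Fragments were recovered from the FPKM steps as whole numbers within 0.0001 for all but 1 of 36981 features above 0; where the GENCODE 29 exon length gave none, the smallest length that did was taken (17043 features), which can understate reads. Positions, exons and mRNA lengths are of GENCODE 29 (GRCh38). mRNA length is that of the principal transcript.

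The members, subcomplexes and lists were chosen with earlier results of these data known. Genes named in full were the catalytic subunits, the highest, lowest and smallest-p member of each subcomplex, and the 2 smallest-p genes of each other list. Some genes that this rule names are not reported here. PSMA1, PSMA4, PSMA6, PSMB3, PSMD4, PSMD12, PSME2, NFE2L1 and TAP1 were added after their values were seen.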

Additional observations from a re-analysis of the deposited data

How the results depend on the processing

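No member and no feature passed limma's adjusted threshold of 0.05 under any alternative tried. Values that follow are log2 fold changes of siGFPT2 over siNC, and the cause of each reversal was not tested. Deviations from the group's own mean correlated at 0.47, -0.72 and -0.57 between same-numbered libraries 1, 2 and 3 (Pearson, over 12896 features). The 2 libraries that stood apart, siGFPT2 replicate 2 and siNC replicate 3, carry different numbers and correlated at 0.79. These values therefore cannot tell whether same-numbered libraries were prepared together. With the number as a replicate block 0 members were called, their median stayed at 0.05 and 63 features had an unadjusted p under 0.05. Centring each library on its median gave -0.0291 for PSMB5, -0.0528 for PSMB7, -0.0447 for PSMB4, -0.0260 for PSMB2, -0.0528 for PSMC3 and -0.0427 for PSMD2, all just above 0 as reported. Quantile normalization gave 0.0039 for PSMA7, a pseudocount of 1 gave -0.0001 for PSMC3, and limma-voom gave -0.0001 for PSMC3 and -0.0000 for PSMB7. Without both siGFPT2 replicate 2 and siNC replicate 3, PSMB6 stood at 0.05, PSMB8 at 0.06 and PSMA7 at 0.0094, and the log2 ratio of PSMB10 to PSMB7 differed by -0.0145. Leaving out 1 library at a time moved the median of the members between -0.06 and 0.19 and changed the sign of genes near 0. Over those fits PSMB5 lay between -0.13 and 0.21, PSMB6 between -0.19 and 0.22, PSMB7 between -0.12 and 0.19, PSMB8 between -0.16 and 0.17, PSMB9 between -0.20 and 0.13, and PSMB10 between -0.10 and 0.25. PSMA7 lay between -0.18 and 0.14, PSMB4 between -0.14 and 0.22, PSMB2 between -0.0393 and 0.12, PSMB1 between -0.0553 and 0.32, and PSMC3 between -0.15 and 0.21. PSMD2 lay between -0.0275 and 0.0516, PSMD9 between -0.22 and 0.12, PSME1 between -0.0582 and 0.35, PSMF1 between -0.11 and 0.0321, MAFK between -0.29 and 0.0043, and RAD23B between -0.0539 and 0.18. The difference in the log2 ratio of PSMB9 to PSMB6 lay between -0.0894 and 0.0003, and that of PSMB10 to PSMB7 between 0.0231 and 0.15. PSMA2 was left out by the minimum of 1 FPKM and rested on 11 to 20 fragments, and the 3 libraries a group limit every interval.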
